A study of Homo sapiens with 8 samples.

Results

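Genes for RING-finger, TRIM, F-box, HECT, UBR and MARCHF proteins, most of them ubiquitin ligases or subunits of ligases, are described here by their N6-methyladenosine (m6A) peaks. Rows of a deposited peak list were taken by gene name, and the 332 rows so matched fell on 173 names. The Wnt-receptor ligase gene RNF43 (4 peaks), antisense genes (9 peaks) and pseudogenes (6 peaks) were left out. This left 313 of 22626 peaks, on 159 of 12009 genes. The choice used gene names and descriptions and no threshold on a measured value, although earlier results of these data were known when it was made.

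The cells were HCT116, a human colorectal cancer line, and stably expressed a short hairpin RNA, either a control without a target (shNC) or one against ALKBH5 (shALKBH5), a demethylase that removes m6A from RNA. The labels give the first the genotype WT and the second ALKBH5 knockdown, and the label of the second names a single hairpin. From each arm, fragments of poly(A) RNA bound by an anti-m6A antibody (IP) and unselected fragments (input) were sequenced, with 2 libraries in each of 4 groups. Whether replicates are separate cultures is not stated in the labels. The authors deposited 1 comparison of the arms, and values per library were not analysed here: replicate errors cannot be given and the depth is unknown. The arm that is the numerator of the deposited log2 fold is not stated, and folds are therefore called positive or negative only. Nor is it given whether the folds were corrected for transcript level, so m6A and transcript level cannot be told apart. The 3 peaks of ALKBH5 itself had log2 folds of -1.43, -0.93 and -1.25 per the authors' deposited table, with false discovery rates (FDR) from 0.325 to 0.465, and the knockdown was not checked here. Of 10 colorectal epithelium markers 6 carried a peak, against 1 of 8 fibroblast and 1 of 8 leukocyte markers.

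Ubiquitin is attached to proteins by a relay of activating, conjugating and ligating enzymes, and the ligase picks the substrate. RING proteins, including the TRIM family, bring the conjugating enzyme next to the substrate. HECT proteins first take ubiquitin onto a cysteine of their own. F-box proteins are substrate receptors of the SCF ligase, joined to the cullin CUL1 through SKP1. UBR proteins are known for reading destabilising residues at protein ends, and MARCHF proteins are mostly membrane-bound RING ligases. m6A is deposited mainly at an A followed by C, within a short stretch rich in purines.

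Sequence could be read for peaks that reach an annotated transcription start. The RefSeq windows used (GRCh38.p14) hold 250 bases before and 50 after each start and covered 127 of the member genes. A peak of 14 genes reached such a window of its own gene. The overlapping bases were searched on the sense strand for 6 words, GGAC or AGAC followed by A, C or T, which are forms of the sequence that m6A is usually found in. A word was present in 6 of the 14 overlaps, and these are shown because they are the peaks for which a candidate site can be printed. Capitals mark the word, flanked by up to 12 bases on each side where the peak and the window allow.

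ITCH, first word: ggtcggggctcgGGACCggctgccatctt
ITCH, second word: atcttagtctagGGACT
RNF114: ggcgcaacagcgGGACTgcgggggtgctg
RNF223: cacacctgcctcAGACCagagctctgtgc
TRIM39-RPP21: aaattatggcagAGACAagtctgttagag
RNF111: ggtggcggtgacAGACActgttcttgact
TRIM15: cctggaatttGGACCcactccgctgat

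The ITCH stretches lie on the plus strand at chr20:34363282-34363310 and chr20:34363306-34363322, and their words begin at bases 22 and 46 of the transcript that starts there. For RNF114 the stretch is chr20:49936418-49936446 (plus strand, word at base 34). That of RNF223 is chr1:1074272-1074300 (minus strand, base 19), and that of the readthrough gene TRIM39-RPP21 is chr6:30329313-30329341 (plus strand, base 15). The RNF111 stretch, chr15:58987900-58987928, and the TRIM15 stretch, chr6:30163445-30163471, both on the plus strand, lie upstream of the start of their window. The RNF111 peak has its centre 201 bases inside the RefSeq gene, so its window belongs to a later start of that gene. The centre of the TRIM15 peak lies outside the RefSeq span of its gene. None of these 6 peaks passed the authors' FDR of 0.05. Their log2 folds ran from -1.3 for RNF223 to 2.12 for TRIM39-RPP21 per the authors' deposited table, and their enrichment from 3.84-fold for RNF114 to 34.3-fold for RNF111. The one called peak at a start site, on RNF113A, held none of the 6 words in the 50 bases it shared with the window. Over all RefSeq windows, 25.8% of 35116 held a word in the 50 bases after the start, against 19.7% of the 193 windows of member genes. The 14 overlaps ran from 50 to 121 bases and some include bases before the start, so their 6 of 14 cannot be set against these shares. A match is a description of letters and not a measured site.

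A peak is called here where the authors' FDR for the difference between the arms is at most 0.05. Of the 313 member peaks 27 were called, which is 8.63% (exact binomial 95% interval 5.76 to 12.3), against 8.23% of all peaks. They fell on 26 of the 159 member genes, beside 1644 of 12009 genes (13.7%) with a called peak in the whole table. Positive folds were called at 16 peaks (5.11%, against 5.74% of all peaks) and negative folds at 11 (3.51%, against 2.49%). At this threshold the share of calls on ubiquitin ligase genes was near the background of the table, and under stricter readings it was below it, a difference that was not tested. The median log2 fold of member peaks was 0.15 per the authors' deposited table, with quartiles of -0.44 and 0.84, and that of all peaks was 0.14. Median enrichment was 10.1-fold in both. With folds recentred on the median of all peaks and judged at the same p, 22 member peaks (7.03%) were called, 9 positive and 13 negative, against 7.87% of all peaks. At an FDR of 0.01 there were 7 (2.24%), against 4.99% of all peaks. Treating p as one-sided and doubling it left 15 (4.79%), against 6.36%. The positive share of calls moved from 59.3% to 40.9% among members and from 69.7% to 53.1% among all peaks. Signs below are those of the deposited folds, and calls lost in that recentring are named beside the gene.

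**Figure D1:**
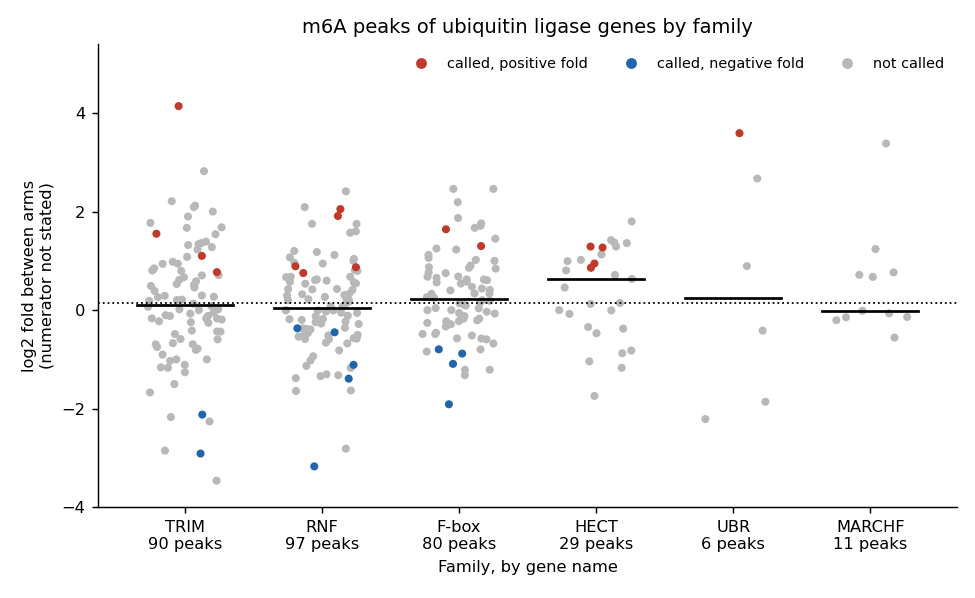
Each point is a peak, placed by gene family (x axis) and by its deposited log2 fold between the arms (y axis), with called peaks in colour. Solid bars are family medians and the dotted line is the median of all peaks, 0.14. HECT genes hold 4 called positive and 0 called negative peaks, that of ITCH lying almost wholly outside its gene. RNF genes hold 5 of each sign, and 69.7% of calls over all peaks are positive.

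TRIM proteins carry a RING, B-boxes and a coiled coil, and many act in antiviral signalling. Of 90 peaks on 40 TRIM genes, 6 were called (6.67%, against 8.23% of all peaks), 4 positive and 2 negative. The largest fold of any member was on TRIM4, whose product has been linked to RIG-I signalling. That peak, at 99892456 to 99901233 on chromosome 7 in 2 exon blocks, had a log2 fold of 4.14 per the authors' deposited table (FDR 5.89e-06). The other TRIM4 peak was not called, at 1.90 (FDR 0.238) per the authors' deposited table. The TRIM4 call held under recentring and with p doubled.

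TRIM25 and TRIM65, ligases known to act on the RNA sensors RIG-I and MDA5, had called peaks of opposite sign. The TRIM25 peak spanned 4 exon blocks at 56901375 to 56908782 on chromosome 17 and stood at 0.77 per the authors' deposited table (FDR 0.00813). The other 2 TRIM25 peaks were close to the median of the table, at 0.27 and 0.29 per the authors' deposited table. TRIM65 had 4 peaks, of which the called one, at 75890977 to 75891337 on chromosome 17, stood at -2.12 per the authors' deposited table (FDR 0.0117). Its neighbours ranged from -0.07 to 0.53 per the authors' deposited table, so the TRIM65 difference was listed for a single peak 5794 bases from the annotated 5′ end.

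TRIM44, a TRIM protein that lacks the RING, showed the widest spread within a called gene of this family. The authors' deposited table gives its 3 peaks, from 5′ to 3′, log2 folds of 0.70, 1.77 and -2.91, and the last one was called (FDR 0.00692). Peaks of TRIM11 and of TRIM72, a muscle protein of membrane repair, were called at 1.10 (FDR 0.0417) and 1.55 (FDR 0.038) per the authors' deposited table. Neither of these calls held when recentred or with p doubled. TRIM33, a ligase of the SMAD pathway, had 6 listed peaks, some of which overlap, and none was called. Its log2 folds ran from -1.26 to 2.09 per the authors' deposited table.

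TRIM52 had 7 listed peaks, the most of any TRIM gene, and none was called. Per the authors' deposited table they ran from -1.17 to 1.54. Several of the TRIM52 peaks overlap each other, and 5 share bases with peaks of a gene on the opposite strand, so fewer independent sites lie behind them than the list shows. TRIM56, an antiviral ligase with 4 peaks, had none called either.

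RNF genes are named for the RING alone and act in many pathways. Of 97 peaks on 55 of these genes 10 were called (10.3%, against 8.23% of all peaks), 5 positive and 5 negative. RNF8 and RNF168 are known to act in turn on chromatin at DNA double-strand breaks, and each had a called positive peak. The RNF8 peak, at 37368500 to 37369791 on chromosome 6, stood at 2.05 per the authors' deposited table (FDR 0.0148). For RNF168 the called peak, at 196471919 to 196475243 on chromosome 3, stood at 1.91 (FDR 0.0132) per the authors' deposited table and was enriched 48.6-fold, the most of any called member. Both calls held under recentring and with p doubled. The other 3 RNF168 peaks had positive folds of 0.17, 0.68 and 0.95 per the authors' deposited table, none called, while the other RNF8 peak stood at -0.25.

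Further genes of the same chromatin response had no called peak. RNF169, which binds the marks left by RNF168, had folds of -0.47 and 0.07 per the authors' deposited table. HERC2, a HECT protein that binds RNF8, had 1 peak, at -0.82 (FDR 0.384) per the authors' deposited table. The 2 peaks of RNF4, a ligase that targets SUMO-modified proteins, stood at 0.63 and -0.39 per the authors' deposited table. RNF2, the catalytic ligase of Polycomb repressive complexes, had 1 peak at 0.54 (FDR 0.497) per the authors' deposited table.

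RNF20 and RNF40 form the ligase that ubiquitinates histone H2B. RNF40 had a called negative peak at 30774841 to 30775230 on chromosome 16, at -1.39 per the authors' deposited table (FDR 0.0001). The neighbouring RNF40 peak stood at -0.68 (FDR 0.0646) and a peak further 5′ at 0.57 (FDR 0.163) per the authors' deposited table. The neighbouring peak was called once the folds were recentred. Both negative RNF40 peaks coincide with peaks listed for an unnamed gene on the opposite strand, with log2 folds of -1.40 and -0.71 per the authors' deposited table, so the strand of origin is uncertain. RNF20 had no called peak, with folds of -1.13 and 0.30 per the authors' deposited table.

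RNF5, RNF26 and RNF208 were called with negative folds. RNF5, a ligase of the endoplasmic reticulum membrane, had its only peak at 32180556 to 32180793 on chromosome 6, with its centre 118 bases short of the annotated 3′ end. The authors' deposited table gives it -1.11 (FDR 0.00251) at an enrichment of 2.33-fold. RNF208 had the largest negative fold among called members, -3.17 (FDR 0.0437) per the authors' deposited table, and was lost with p doubled. RNF26, which anchors endosomes to the endoplasmic reticulum, carried a peak of 1826 bases in 1 exon block, at -0.45 (FDR 0.0251) per the authors' deposited table. That peak shares bases with an opposite-strand peak listed at 0.01 per the authors' deposited table, and its call was lost with p doubled. RNF187, a coactivator of JUN, was called at -0.37 (FDR 0.0158) per the authors' deposited table, the smallest called fold among members.

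RNF7, RNF113A and RNF123 were called with positive folds, each on its only peak. RNF7 is a RING partner of cullins and stood at 0.87 (FDR 0.0145) per the authors' deposited table. RNF113A, a spliceosome-associated protein, stood at 0.89 (FDR 0.0174) over 1169 bases per the authors' deposited table. The RNF123 peak, at 0.75 (FDR 0.0257) per the authors' deposited table, overlaps a peak of GMPPB on the opposite strand listed at 0.79 (FDR 0.0151), and the gene of origin is uncertain. RNF113A and RNF123 were lost with the folds recentred, and RNF123 also with p doubled. RNF213, a giant ligase linked to moyamoya disease, had 8 peaks, the most of any member. None was called, and the 8 folds ran from -0.82 to 2.09 per the authors' deposited table.

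F-box genes had 6 called peaks of 80 (7.5%, against 8.23% of all peaks), on 5 of 42 genes. FBXO7, known for its link to early-onset parkinsonism, had its only peak called at 1.30 (FDR 0.00661) per the authors' deposited table. FBXO33 was called at 1.64 (FDR 0.0257), while its more enriched peak (38.8-fold) stood at -0.17 per the authors' deposited table. The FBXO7 call held with p doubled and that of FBXO33 did not (FDR 0.0515).

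The 4 negative F-box calls fell on 3 genes. Both peaks of FBXO46 were called, at -0.88 (FDR 0.0158) and -1.09 (FDR 0.0479) per the authors' deposited table, which made it the only member with more than 1 called peak. These peaks lie 89 bases apart on chromosome 19, at 45711705 to 45712123 and 45712213 to 45713109. FBXO2, a receptor for glycoproteins retrieved from the endoplasmic reticulum, was called at the 5′-most of its 4 peaks, at -1.91 (FDR 0.0309) per the authors' deposited table. The other 3 FBXO2 peaks had positive folds of 0.27, 0.40 and 0.62 per the authors' deposited table. FBXW5 stood at -0.80 (FDR 0.0427) per the authors' deposited table. The FBXO2 and FBXW5 calls and that of the longer FBXO46 peak were lost with p doubled.

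FBXW7, the receptor for MYC, cyclin E and NOTCH, had 5 peaks and none was called. Its log2 folds per the authors' deposited table were -0.52, 0.0, -0.06, -0.21 and -0.49 from 5′ to 3′. The FBXW7 peak with the smallest p, at 152411272 to 152412593 on chromosome 4, was enriched 21.1-fold and stood closest to 0 after the one listed at 0.0. FBXO11, a receptor for BCL6, had folds of 2.46 and 0.61 per the authors' deposited table, neither called. Its more enriched peak overlaps one on the opposite strand.

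Among the subgroups of F-box genes, FBXL genes (with leucine-rich repeats) had 20 peaks, FBXW genes (with WD repeats) 14 and FBXO genes 46. Of the FBXO folds 29 were above 0 (63.0%) per the authors' deposited table, with a median of 0.3 and 5 called. Of the FBXL folds 16 were above 0 (80.0%) per the authors' deposited table, with a median of 0.52 and none called. Of the FBXW folds 3 were above 0 (21.4%), with a median of -0.13 and 1 called. A peak each of FBXW2 and FBXW7 was listed at exactly 0.0. FBXW7 alone held 5 of the 14 FBXW peaks, none with a fold above 0. Among all peaks 55.3% were above 0. After recentring the medians were 0.38 for FBXL, 0.16 for FBXO and -0.27 for FBXW genes. The differences between these subgroups were not tested.

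**Figure D2:**
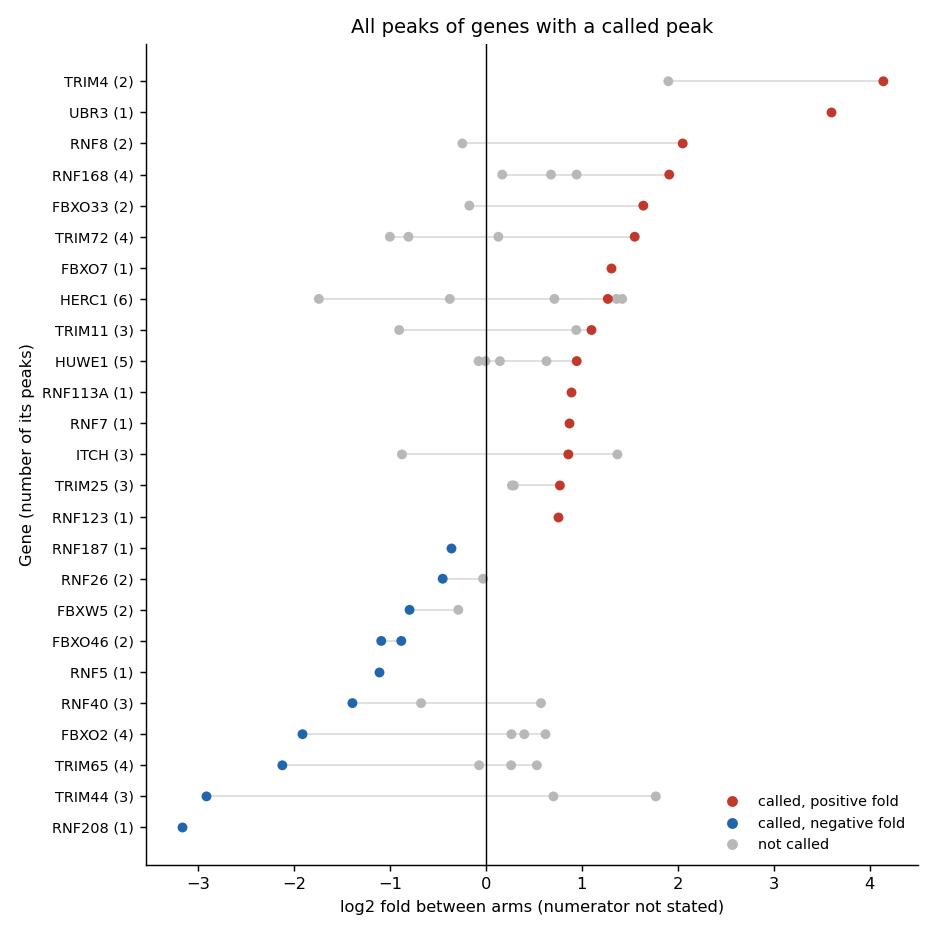
All peaks of 25 of the 26 genes with a called peak, 1 gene per line (number of its peaks in parentheses), along the deposited log2 fold between the arms (x axis). Called peaks are coloured and uncalled ones grey; TRIM44, FBXO2 and TRIM65 have uncalled peaks on the other side of 0 from the called one.

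HECT genes had 4 called peaks of 29 (13.8%, against 8.23% of all peaks), on 4 of 10 genes. All 4 were positive, as were 69.7% of calls over all peaks, and the difference was not tested. The ITCH call among them lay almost wholly outside that gene, as described below. HUWE1 is a giant ligase with MYC-pathway and apoptosis substrates, and HERC1 is another giant with RCC1-like repeats. HUWE1 was called at the 5′-most of 5 peaks, at 0.95 (FDR 0.0191) per the authors' deposited table, with the others between -0.08 and 0.63. HERC1 was likewise called at the 5′-most of 6 peaks, at 1.27 (FDR 0.0468), while its other folds ran from -1.74 to 1.42 per the authors' deposited table. Neither of these calls held under recentring, and that of HERC1 was also lost with p doubled. The median of the 29 HECT folds was 0.63, and 0.49 after recentring.

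The HECT call on ITCH lay almost wholly outside that gene. ITCH is a ligase with JUN-family and Notch-pathway substrates. Its called peak stood at 0.86 (FDR 5.37e-06) per the authors' deposited table and survived recentring and doubling of p. It is listed at 34511765 to 34540748 on chromosome 20 in 4 exon blocks with 421 bases in all. Only 9 of these bases fall at or before the annotated RefSeq end of ITCH at 34511773, and 412 (97.9%) lie beyond it. The peak shares exon bases with one listed for the next gene on the same strand, DYNLRB1, a dynein light chain gene, at 0.65 (FDR 5.62e-06) per the authors' deposited table. The ITCH peaks within the gene, which include the one with both printed words, stood at -0.87 (FDR 0.679) and 1.37 (FDR 0.214) per the authors' deposited table and were not called. Without this peak 3 HECT calls remain.

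Other HECT genes had no call. NEDD4, the founding member, had 1 peak at 0.0 per the authors' deposited table, and NEDD4L, which turns over epithelial sodium channels, had 3 between -1.04 and 1.80. HECTD4 had 3 peaks from 1.02 to 1.29 per the authors' deposited table, each with an FDR of at least 0.369.

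Of 6 UBR peaks 1 was called (16.7%, against 8.23% of all peaks). UBR3 had its only peak at 169949626 to 169949955 on chromosome 2, at 3.59 (FDR 0.0355) per the authors' deposited table, and the call was lost with p doubled. UBR1 and UBR2, which recognise N-terminal degrons, had 1 peak each, at -2.21 and -1.86 per the authors' deposited table. Neither passed. MARCHF genes had 11 peaks on 7 genes and 0 calls. At an unadjusted p of 0.05, 61 member peaks of all families (19.5%) passed, against 19.9% of all peaks. MARCHF6, a ligase of sterol metabolism in the endoplasmic reticulum, stood at 0.77 and -0.14 per the authors' deposited table, and a MARCHF3 peak at 3.38 had an FDR of 0.152.

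Near the threshold, the called peaks with the largest FDR were those of FBXO46 (0.0479) and HERC1 (0.0468) per the authors' deposited table. Just outside it were peaks of FBXW2 at 1.02 (FDR 0.0513), MARCHF7 at 0.72 (FDR 0.0589) and FBXO21 at 0.91 (FDR 0.0617) per the authors' deposited table.

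The strongest m6A enrichment among these genes fell on uncalled peaks, which make up 286 of the 313 member peaks. FBXO30 had a peak of 2338 exonic bases enriched 89.5-fold per the authors' deposited table. Next were FBXL5, the iron-sensing receptor for IRP proteins, at 77.6-fold, and FBXO5, the inhibitor of the anaphase-promoting complex also known as EMI1, at 68.4-fold. FBXO38 stood at 67.5-fold and RNF182 at 61.9-fold per the authors' deposited table. Their log2 folds between the arms ran from -0.46 for FBXO30 to 0.80 for RNF182 per the authors' deposited table. Called member peaks had a median enrichment of 6.47-fold and uncalled ones 10.7-fold, beside 5.93-fold and 10.5-fold over the whole table.

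**Figure D3:**
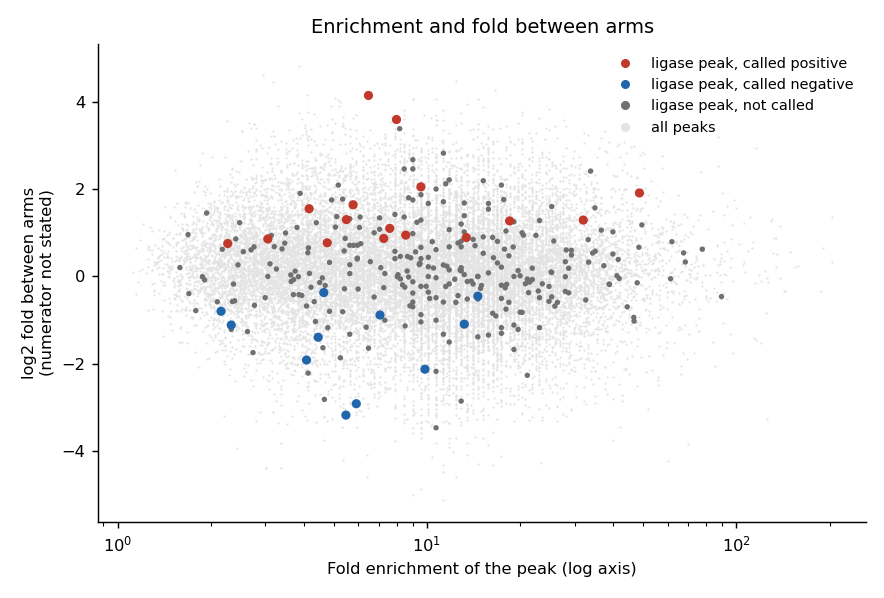
Fold enrichment of each peak (x axis, log scale) against its deposited log2 fold between the arms (y axis), with member peaks over all 22626 peaks in light grey. The 5 most enriched member peaks, from 61.9-fold to 89.5-fold, are among the 286 of 313 member peaks that are not called. Called member peaks have a median of 6.47-fold.

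Peaks of the same gene often pointed in different directions. Of the 159 genes 69 had 1 peak (43.4%, against 51.6% of all genes). Of the 90 with more, 37 (41.1%) had all their folds on one side of 0, and the share among all genes was 38.4%. The median distance between the lowest and highest fold of a gene was 1.30 on the log2 scale, against 1.33 for all genes. Called peaks of both signs were found on 50 of all genes and on 0 members, of which only FBXO46 had more than 1 called peak. Of the 18 called genes with at least 2 peaks, 12 carried an uncalled peak with a fold of the opposite sign. Folds not all on one side of 0 were listed for 53 of the 90 member genes and for 3578 of 5812 such genes of the whole table. The matching share among called genes of the whole table was not computed. Called peaks were the first from the 5′ end in 7 of the 19 cases on such genes, the last in 8 and between in 4.

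Positions were taken relative to the RefSeq gene of the same symbol, and 304 of the 313 peaks had their centre within it. Distances are along the genome and count introns, so they are not positions on the transcript and gene length enters them. Of these, 50 (16.4%, exact binomial 95% interval 12.5 to 21.1) had a centre at most 1000 bases from the annotated 3′ end, against 22.2% of all placed peaks. A further 158 (52.0%, against 43.1%) lay more than 5000 bases from it. Calls were made at 8.0% of member peaks within 1000 bases, 11.5% of those from 1000 to 5000 and 6.96% of those beyond. Over all peaks these shares were 12.4%, 8.1% and 6.0%. The differences between members and the whole table were not tested.

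**Figure D4:**
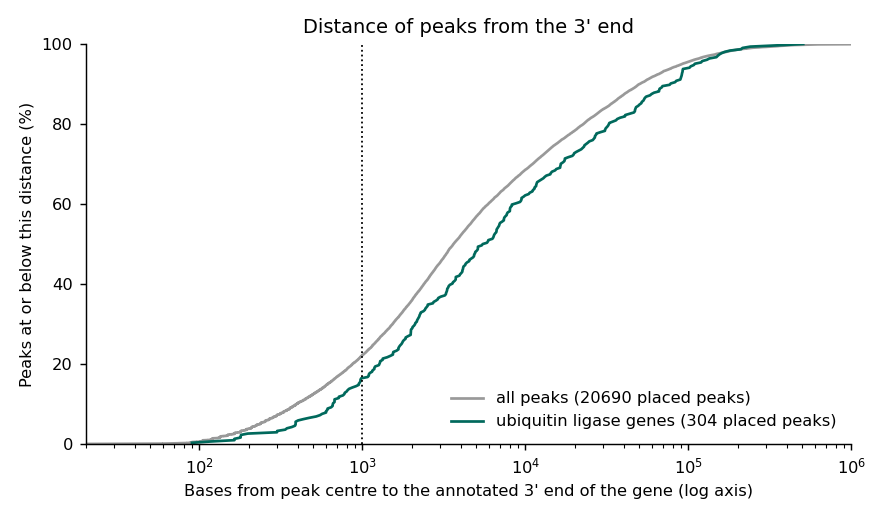
Cumulative share of peaks (y axis, percent) by the distance from the peak centre to the annotated 3′ end of the gene (x axis, bases, log scale), for 304 member peaks and all placed peaks. The dotted line marks 1000 bases, below which 16.4% of member peaks and 22.2% of all peaks lie. Distances are along the genome and count introns.

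Called peaks with positive folds mostly spanned an exon junction, and those with negative folds mostly did not. More than 1 exon block was listed for 12 of 16 positive peaks (75.0%, exact binomial 95% interval 47.6 to 92.7) and for 1 of 11 negative ones (9.09%, 0.23 to 41.3). The negative exception was FBXO2. The 12 include the ITCH peak, almost wholly outside its gene, and the RNF123 peak, whose gene of origin is uncertain. Among the negative peaks, those of RNF40 and RNF26 share bases with peaks on the opposite strand. Among all called peaks the shares were 43.7% and 30.3%, so the same order was already present there, and members are not independent evidence of it. Positive member peaks had a median exonic length of 480 bases and negative ones 361, whereas over all called peaks the medians were 391 and 449. Among called member peaks of at most 400 bases, 3 of 5 positive and 1 of 7 negative spanned a junction, against 32.7% of 663 and 28.7% of 251 over the whole table, where the difference between the signs was thus smaller at that length. The part of peak length in this difference was not tested further. Of all 313 member peaks 36.7% spanned a junction, against 30.4% of all peaks, and in HECT genes the share was 62.1%.

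**Figure D5:**
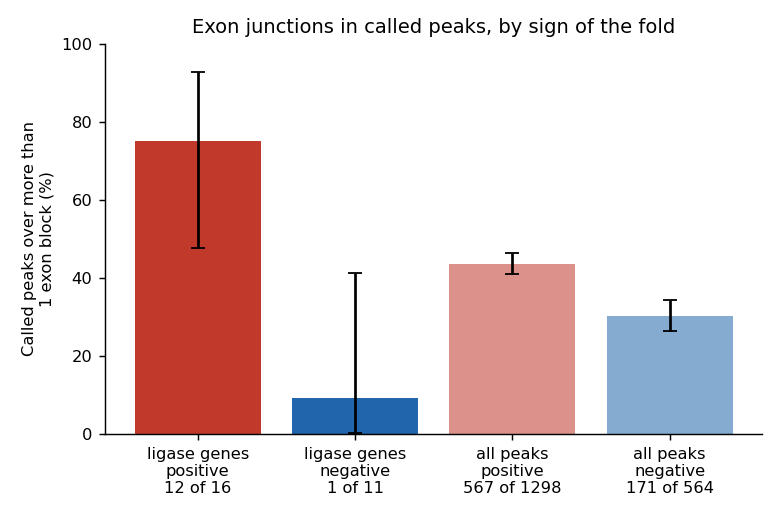
Share of called peaks that span more than 1 exon block (y axis, percent, from 0), by sign of the deposited fold, for member genes and for the whole table, with exact binomial 95% intervals as bars. Among member genes the shares are 75.0% and 9.09%, and 43.7% and 30.3% over all called peaks.

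Other genes of the ubiquitin pathway are given for comparison, from 6 lists. Of 14 peaks on ubiquitin and activating-enzyme genes 3 were called, all positive. These were UBA2, a subunit of the SUMO-activating enzyme, at 1.28 (FDR 0.0324), the polyubiquitin gene UBB at 0.66 (FDR 0.00575) and RPS27A, a fusion of ubiquitin and a ribosomal protein, at 0.38 (FDR 0.0115) per the authors' deposited table. Recentring ended the UBA2 and RPS27A calls, and that of UBA2 was also lost with p doubled. Of 15 peaks on SCF core and regulator genes 1 was called, for the conjugating enzyme UBE2R2 at 0.52 (FDR 0.0191) per the authors' deposited table, and lost when recentred. F-box genes under other names had 18 peaks and 0 calls.

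Other HECT ligases had 2 calls of 26 peaks, both on SMURF2, a ligase of TGF-beta receptor and SMAD turnover. The SMURF2 peaks stood at 1.28 (FDR 6.61e-05) and 0.72 (FDR 0.00912) per the authors' deposited table and held under recentring and doubling of p. RBR and U-box ligases had 1 call of 26, ANKIB1 at 1.18 (FDR 0.00525) per the authors' deposited table. RING ligases under other names had 5 of 72 (6.94%), 3 positive and 2 negative. A positive call fell on MKRN2 at 2.29 (FDR 0.0219) and negative ones on PML at -1.47 (FDR 0.00479) and BIRC2 at -1.46 (FDR 0.0363) per the authors' deposited table. Another positive call was CBLL1, a subunit of the m6A writer complex, at 0.90 (FDR 0.0302) per the authors' deposited table. With p doubled the BIRC2 and CBLL1 calls were lost, and that of CBLL1 was also lost when recentred. Except for the first list, where 3 of 14 is 21.4%, no list exceeded the background of 8.23%.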

How the data were processed

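m6A immunoprecipitates and inputs of HCT116 cells were sequenced in 8 libraries, 2 in each of 4 groups taken from the sample titles. More than 1 anti-m6A antibody appears in the labels, and the one used for these libraries is unclear. GRCh38, BWA 0.7.12 and HOMER 4.9.1 are listed, without their roles, per the submitters' processing notes, and no peak caller is stated there. Each peak has the authors' p-value with, per the file headers, its logarithm, treated here as a score because it runs beyond the usual log10 range. Enrichment is the authors' linear fold ratio, read as IP over input, and their deposited log2 fold sets 1 arm against the other, with the log10 of its p and FDR as a score per the file headers. Whether that p is one-sided, or used the spread between replicates, is not stated. No library depth, replicate error or test across libraries could be obtained, so the values are descriptions beside those of the whole table.

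Members, gene lists and named genes were chosen with earlier results of these data known. Called members were named (a few are not reported here), with the 5 genes with most peaks, the 5 most enriched peaks, a fixed set of well-known members and up to 4 called genes per list (CBLL1, RNF8 pathway genes without a call, threshold neighbours and others were added after their values were seen). Analyses used Python 3.11.15, pandas 2.3.3 and scipy 1.17.1. Gene ends came from the RefSeq table of GRCh38.p14, matched by symbol or synonym. Peaks overlap where exon blocks share at least 1 base. Other settings were FDR 0.01, an unadjusted p of 0.05, p doubled and adjusted again (Benjamini-Hochberg, checked on simulated data), stricter peaks, overlaps left out, 1 peak per gene and other windows. Recentred calls, chosen after seeing the data, subtract the median fold of 0.14, take a standard error from fold and p (read as one-sided, for p under 0.3) and apply the largest p of the called peaks, 0.00407.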

Additional observations from a re-analysis of the deposited data

How the results depend on the processing

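The number of called member peaks, 27 (16 positive, 11 negative, on 26 genes), depended on how the deposited p is read. At an FDR of 0.01 there were 7 (4 positive, 3 negative, on 7 genes), with an unadjusted p of 0.05 61 (41 positive, 20 negative), and with p doubled 15 (9 positive, 6 negative, on 15 genes). Recentred folds gave 22, with positive calls at 9. These follow from the stricter or looser thresholds and the shift itself. Counts with only strong peaks, only peaks of at least 2-fold enrichment, without peaks overlapping another gene, or with overlapping peaks of a gene counted once ranged from 23 to 27. Median enrichment was 13.2-fold with a peak FDR of at most 1e-05, against 10.1-fold. That setting itself selects on peak strength, so the rise is not a separate result. With 1 peak per gene the median enrichment was also 13.2-fold, and the cause was not tested. The median log2 fold stayed between 0.14 and 0.19. The share near the 3′ end was 6.58% within 500 bases and 28.6% within 2000, against 12.5% and 35.8% of all peaks. The share over more than 1 exon block was 28.6% among peaks of at most 400 bases, against 24.9% of all such peaks. No paired analysis was possible because values per library were not analysed here, and for the same reason no replicate could be left out.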

Other observations

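Several peaks of ubiquitin ligase genes share their bases with another listed gene. In all, 41 member peaks on 32 genes did so, 29 of them with a peak on the opposite strand, and 4 of the 41 were called (ITCH, RNF123, RNF26 and RNF40). The readthrough gene TRIM39-RPP21 and TRIM39 are listed for nearly the same bases, at 2.12 and 2.0 on the log2 scale per the authors' deposited table. TRIM6 and TRIM6-TRIM34 differ more, at 0.67 and 1.67 per the authors' deposited table, for peaks that start 18 bases apart. The FBXO16 peak at 1.76 (FDR 0.0661) lies outside the RefSeq span of that gene and shares bases with a peak of the neighbouring gene ZNF395 at 1.93, which was called (FDR 0.0457) per the authors' deposited table. The TRIM13 peak at -2.85 likewise coincides with one of KCNRG at -3.07 per the authors' deposited table, and neither was called.

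The antisense genes and pseudogenes that the choice of names left out held 15 peaks, of which 0 were called by the authors' FDR. Among them, per the authors' deposited table, TRIM52-AS1 had folds of -0.86 and 2.32, and RNF213-AS1 1.22 and -1.91.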
